A study of Mus musculus with 20 samples.

Results

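The SR proteins, the hnRNP proteins and a set of single regulators of alternative splicing were followed as RNA levels while mouse extraembryonic endoderm stem (XEN) cells became induced pluripotent stem (iPS) cells and while embryonic stem (ES) cells became induced XEN (iXEN) cells. The genes were taken by name: every deposited gene symbol that starts with Srsf (11 genes) or Hnrnp (20 genes), together with Esrp1, Esrp2, Rbfox2, Mbnl1, Mbnl2, Mbnl3, Tra2a, Tra2b, Ptbp1, Ptbp2 and Ptbp3 (11 genes). This gave 42 genes of the 22936 symbols in the files, and all 42 passed the filter on low counts.

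The data were droplet-based single-cell 3′ RNA-sequencing counts of 20 libraries, 2 for each of 10 conditions, which the study calls technical duplicates. The 3F-4 line served for XEN, for the time points day 7, day 14 and day 28, and for XEN-iPS. It carried Col1A1 TetO-OKSmCh/TetO-OKSmCh, by which doxycycline turns on a cassette of Oct4, Klf4, Sox2 and mCherry, as well as R26 M2rtTA/M2rtTA and Oct4-GFP Tg/Tg. ES, 9h, 24h, 48h and iXEN cells were of the iGata4-Gata6-Venus line (Col1A1 TetO-Gata4/+; R26 M2rtTA/+; Gata6 H2B-Venus/+), in which doxycycline turns on Gata4, as a Gata4-mCherry transgene per the study's methods. Reprogramming XEN cells were sorted for mCherry and grown with doxycycline, ascorbic acid and a GSK3β inhibitor in serum/LIF medium, and the day 7, day 14, day 28 and 9h suspensions were recombined from sorted subpopulations, so that their composition was set by the sort. Starting XEN cells had been on feeders in the same medium with no doxycycline, whereas XEN-iPS cells had been re-sorted and kept on feeders in plain serum/LIF, ES cells were in serum/LIF, and iXEN cells were taken after doxycycline had been removed. Medium, feeders or doxycycline history therefore differ between the end states along with the cell state and cannot be told apart from it. Each conversion used 1 line, so line and direction of conversion cannot be told apart.

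SR proteins carry RNA-recognition domains and a domain rich in arginine and serine, and by binding exonic enhancers they favour use of nearby splice sites. hnRNP proteins coat nascent transcripts and often repress splice sites, and MBNL, PTBP, ESRP and RBFOX proteins act on smaller sets of exons in a manner that depends on where they bind. MBNL1 and MBNL2 are known as repressors of exon choices typical of pluripotent cells, PTBP1 as a repressor of neuronal exons, and ESRP1 and ESRP2 as regulators of epithelial isoforms. Many SR and hnRNP genes regulate their own RNA through exons that trigger decay, and 3′ counts of whole genes do not separate such isoforms.

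Mbnl2 and Mbnl3 had wide ranges across the conditions, and the 250 bases before the RefSeq start of each are shown (RefSeq, GRCm38.p6). The windows were searched for a GATA motif and the octamer only, and no Klf4 or Sox2 motif was searched for. The Mbnl2 window is at chr14:120275419-120275668 on the plus strand and that of Mbnl3 at chrX:51205991-51206240 on the minus strand. The Mbnl3 window lies inside the GENCODE bounds of the gene, whose longer transcripts start further upstream. Both are printed 5′ to 3′ with CG dinucleotides in capitals.
Mbnl2: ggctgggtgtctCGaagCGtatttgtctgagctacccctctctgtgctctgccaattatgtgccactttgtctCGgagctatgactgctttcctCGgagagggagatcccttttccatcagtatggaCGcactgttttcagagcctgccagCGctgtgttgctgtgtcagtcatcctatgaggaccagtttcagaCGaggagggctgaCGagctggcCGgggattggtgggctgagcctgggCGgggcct
Mbnl3: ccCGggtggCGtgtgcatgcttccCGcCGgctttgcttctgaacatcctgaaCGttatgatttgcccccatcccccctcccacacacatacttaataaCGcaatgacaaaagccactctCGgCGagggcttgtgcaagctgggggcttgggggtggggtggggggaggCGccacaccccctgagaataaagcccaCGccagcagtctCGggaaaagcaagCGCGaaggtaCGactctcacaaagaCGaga
Neither window held a GATA motif, searched on both strands as GATA with A or T before it and A or G after it, or the octamer ATGCAAAT. A GATA motif was present in 26.5% of 32851 RefSeq windows of this length and in 12.2% of 49 windows of 36 of the 42 genes. The octamer was present in 1.6% of all windows and in 0 of the 49. The Mbnl2 window held 10 CG dinucleotides and the Mbnl3 window 15, against a median of 23 over the windows of the 42 genes and 6 over all windows, so both lay below the median of their own group and above that of all promoters.

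The files held 134279 cells, of which 106874 were kept, and the kept cells of a library summed to between 42709008 and 127977303 unique molecular identifiers (UMIs). Summed pluripotency markers ranged from 5.82 CPM (UMIs of a gene scaled to 1000000 kept UMIs of the library) in XEN to 11106 CPM in XEN-iPS, and summed endoderm markers from 12.4 CPM in ES to 7888 CPM in iXEN, as the labels say. Median UMIs per kept cell were lowest in iXEN, at 7284 and 7436, against up to 29798 elsewhere. The XEN-iPS libraries stood apart from each other: 4 Y-linked genes summed to 0.304 CPM in replicate 1 and 56.2 CPM in replicate 2 (35.9 and 26.2 CPM in XEN, and 0.119 to 13.9 CPM over days 7 to 28). Fibroblast markers summed to 19.1 and 166 CPM after fibroblast-like clusters were removed. Their removal took 448 of 4259 cells from XEN-iPS replicate 1 and 3822 of 6825 cells from replicate 2. In the other line the Y-linked sum was at most 0.139 CPM from ES to 48h but 7.47 and 6.23 CPM in iXEN, so the cells compared within a line did not match in this respect. The names of the deposited files placed the libraries in 4 sequencing projects. ES minus XEN and day 28 minus XEN lay within 1 project and 48h minus 24h drew on the same projects on both sides. In every other comparison project and condition cannot be told apart.

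The span of levels across the conditions is given first, as a description without a test. CPM of single genes per library or condition, here and below, were also scaled by edgeR's TMM factors. Summed levels and values of the day 28 classes were not. Among genes with a mean of at least 20 CPM, 12 of 36 splicing genes (33.3%) stayed within 2-fold between their lowest and highest condition mean, against 15.3% of 4863 genes, and the median range was 2.15-fold against 2.96-fold. The 12 were Srsf5, Srsf6, Srsf11, Hnrnpa2b1, Hnrnpa3, Hnrnpf, Hnrnph2, Hnrnpl, Hnrnpr, Hnrnpul1, Hnrnpul2 and Tra2b. The median range was 2.09-fold over the 20 hnRNP genes, 2.56-fold over the 11 SR genes and 3.55-fold over the 11 single regulators. Ranges of at least 4-fold were seen for Srsf12 (48.5-fold), Mbnl3 (20.0-fold), Mbnl2 (12.7-fold), Esrp1 (12.3-fold) and Srsf7 (4.19-fold).

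**Figure D1:**
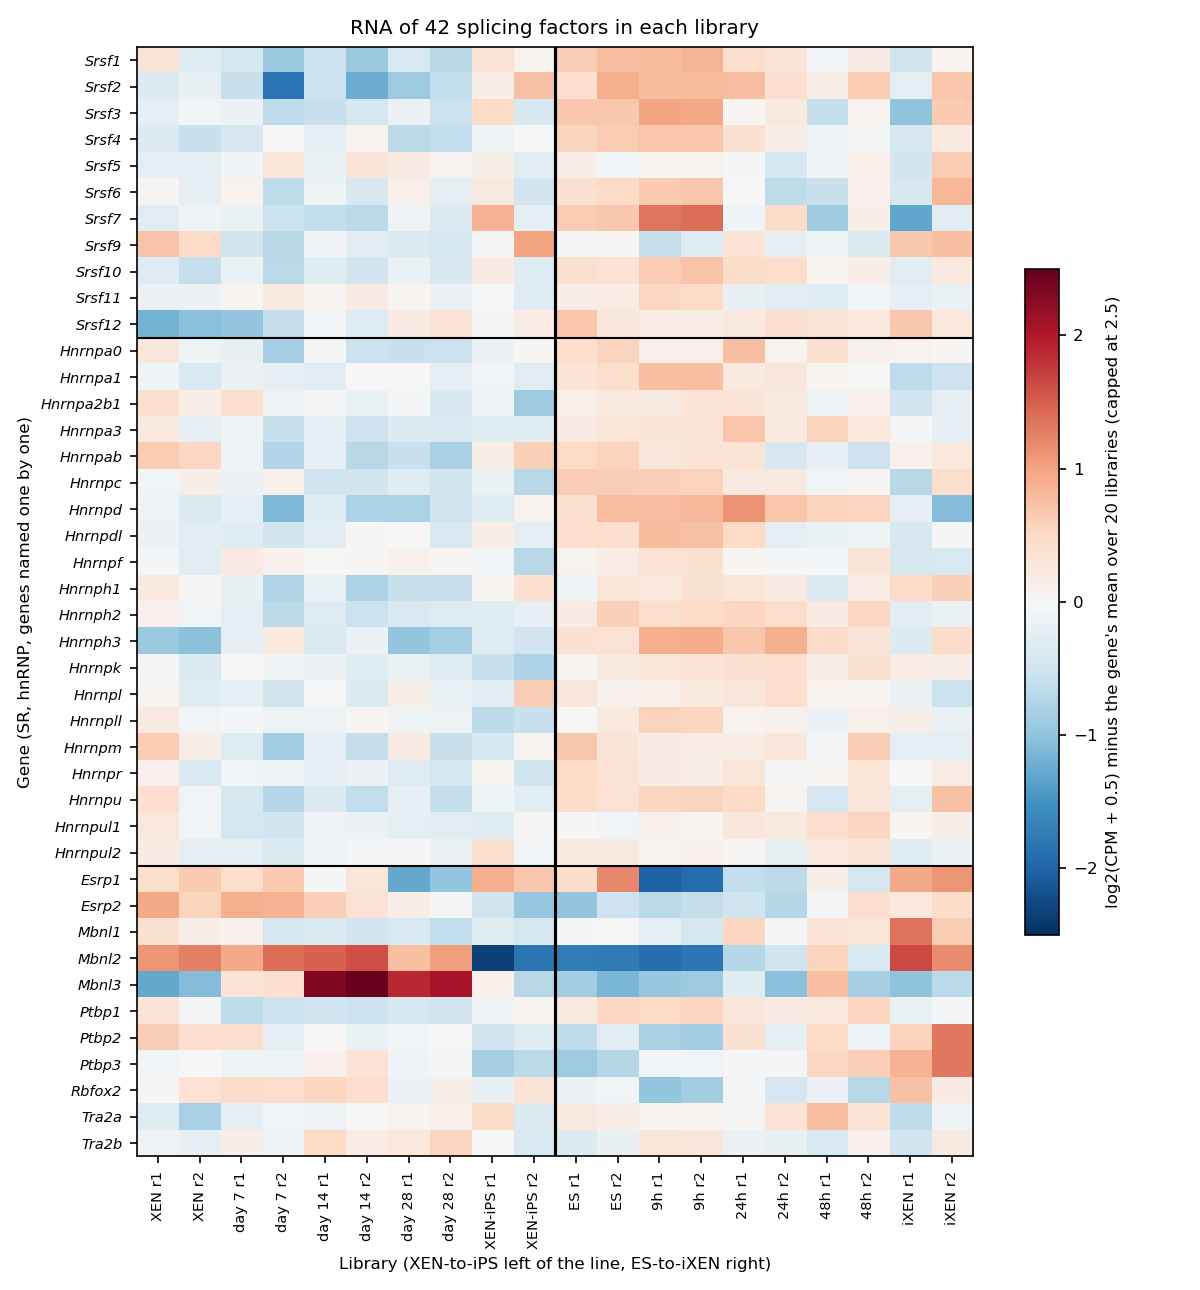
Heat map of the 42 splicing genes (rows) in the 20 libraries (columns, 2 per condition), coloured by log2(CPM + 0.5) minus the mean of the gene over all libraries and capped at 2.5 in either direction. The strongest contrasts lie in Mbnl3, Mbnl2 and Esrp1, while a row such as that of Hnrnpul2 is nearly even.

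The condition with the highest mean was counted for each gene, as a description. The 9h condition had the highest mean for 8 of 11 SR genes and 6 of 20 hnRNP genes, and day 7 or day 28 the lowest for 13 hnRNP genes (7 and 6). The same count was not made over all genes, so these counts do not show a trait particular to SR or hnRNP genes. Summed over the SR genes, levels were 2552 and 2572 CPM at 9h, 2184 and 2213 in ES, and 1086 to 1478 CPM in the 8 libraries of XEN, day 7, day 14 and day 28. The summed hnRNP level spanned 2769 to 3351 CPM at days 7 to 28, 3306 and 4356 CPM in XEN, and 3486 to 4982 CPM over ES, 9h, 24h, 48h and iXEN. Summed SR levels in iXEN were 1355 and 2349 CPM, so that these duplicates spanned most of the range seen across conditions.

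Counts of differing genes were taken from 1 model of all 20 libraries by edgeR's quasi-likelihood test. Genes were called at a Benjamini-Hochberg adjusted p under 0.05 over 16744 genes. Counts under other settings or without 1 library are given without the share of all genes called in that setting. Their changes therefore cannot be read as particular to the 42 genes. The p-values measure only the spread between the duplicates of a condition, pooled over conditions, and do not cover variation between lines. That spread is not purely technical, because some duplicates came from different sequencing projects and those of XEN-iPS also differed in Y-linked RNA. In XEN-iPS minus XEN, 4 genes were higher and 8 lower (28.6% of 42, against 56.6% of all genes, of which 29.4% higher and 27.3% lower), with a median log2 difference of −0.03 against 0.00 over all genes. The split rested on the scaling: with size factors of the RLE method, which moved the median of all genes by 0.21, 7 were higher and 4 lower. Leaving out XEN replicate 1 left 5 calls, and leaving out XEN-iPS replicate 1 left 7. In ES minus iXEN, 10 were higher and 6 lower (38.1% against 55.9%, of which 25.9% higher and 30.0% lower), or 14 and 5 with RLE factors, and without iXEN replicate 1 the count was 7. In ES minus XEN, 11 were higher and 4 lower (35.7% against 55.9%, of which 28.4% higher and 27.5% lower), with a median of 0.30 against 0.04 over all genes, and without XEN replicate 2 the count was 7.

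Fewer genes differed within each time course. Against XEN, 3 genes were higher and 5 lower at day 7 (19.0% against 26.1% of all genes), 3 and 4 at day 14 (16.7% against 24.9%) and 2 and 7 at day 28 (21.4% against 40.3%). The median differences were −0.16, −0.21 and −0.23, against −0.01, 0.02 and 0.08 over all genes. These counts were sensitive to single libraries: 1 was left without day 7 replicate 2, 2 without day 14 replicate 2 or XEN replicate 1, and 4 without day 28 replicate 2. Against ES, 1 gene was higher and 1 lower at 9h (4.76% against 7.53%), 2 and 1 at 24h (7.14% against 14.7%), and 5 and 3 at 48h (19.0% against 40.3%, of which 22.4% higher and 17.8% lower). At 48h the count fell to 4 without ES replicate 2 and to 5 without any other 1 library of that contrast, RLE factors gave 4 higher and 7 lower, and DESeq2 called 15, with 5 higher and 10 lower. In 48h minus 24h, Ptbp3 alone was called (2.38% against 11.1%).

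**Figure D2:**
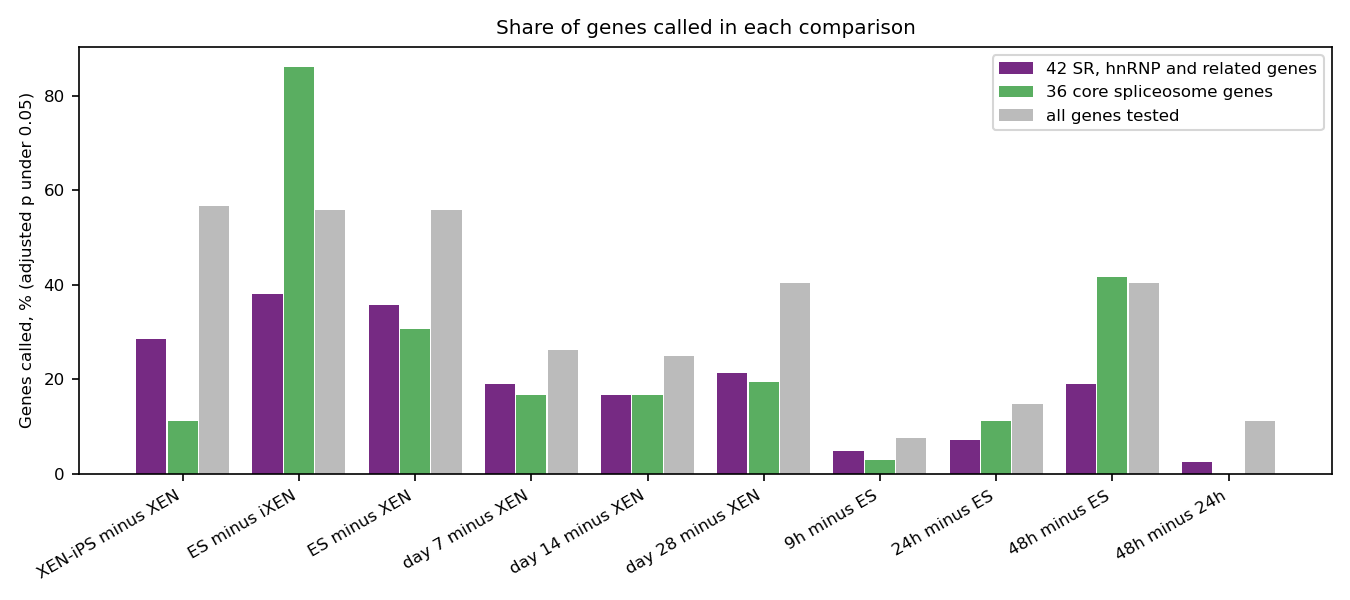
Bars give the percent of genes called at an adjusted p under 0.05 (axis from 0) in 10 comparisons, for the 42 splicing genes, the 36 core spliceosome genes and all 16744 genes tested. The bar of the 42 genes is below that of all genes in every comparison, and the core spliceosome bar reaches 86.1% in ES minus iXEN.

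Mbnl2, an MBNL protein gene (chr14:120275669-120431697, plus strand), was higher in the endoderm states of both lines. It measured 89.3 and 99.6 CPM in XEN, 80.1 and 109 at day 7, 115 and 127 at day 14, 69.7 and 85.6 at day 28, and 7.76 and 11.3 in XEN-iPS. In the ES series it measured 12 and 11.8 CPM in ES and 10.7 and 11.4 CPM at 9h. It then measured 25.0 and 29.3 CPM at 24h, 61.3 and 31.8 CPM at 48h and, in iXEN, 131 and 94.0 CPM. XEN-iPS, ES and 9h libraries held at most 12 CPM and the libraries of XEN, days 7 to 28 and iXEN at least 69.7 CPM, with no overlap. On the log2 scale Mbnl2 was lower by −3.31 in XEN-iPS minus XEN (SE 0.31, adjusted p = 4.29e-07), −3.24 in ES minus iXEN (SE 0.31, adjusted p = 4.72e-07) and −2.99 in ES minus XEN (SE 0.30, adjusted p = 7.89e-07). Each of these calls held without any 1 library, and the first lay between −3.63 and −3.0.

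Within the time courses, Mbnl2 was called in the ES series. From XEN to day 28 no time point differed from XEN by the test, whereas the rise from ES was called at 24h (log2 difference 1.19, SE 0.28, adjusted p = 0.0112) and at 48h (1.97, SE 0.29, adjusted p = 8.75e-05). The 24h call was lost without 24h replicate 2 (1.02, adjusted p = 0.104) or either ES library. Thinned to 2000 UMIs, a Mbnl2 molecule was present in 17.1% and 16.8% of XEN cells, 2.04% and 3.37% of XEN-iPS cells and 2.5% and 2.44% of ES cells. Both XEN libraries thus lay above those of XEN-iPS and ES, as in CPM.

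Mbnl3, on the X chromosome (chrX:51117269-51206532, minus strand), rose within the XEN-to-iPS time course and was low at its start. It measured 0.972 and 1.20 CPM in XEN, 4.06 and 4.24 at day 7, 17.6 and 26 at day 14, 12.7 and 14.5 at day 28, and 3.43 and 1.73 in XEN-iPS. In the 10 libraries of the ES series it measured between 1.12 CPM and 5.55 CPM, so the day 14 and day 28 libraries lay above all others. The log2 difference from XEN was 4.32 at day 14 (SE 0.54, adjusted p = 6.32e-05) and 3.64 at day 28 (SE 0.52, adjusted p = 7.62e-05), and both held without any 1 library. At day 7 it was 1.93 (SE 0.50, adjusted p = 0.0101), a call lost without XEN replicate 1 (1.77, adjusted p = 0.0916) or day 7 replicate 2 (1.89, adjusted p = 0.0526). Mbnl3 was also called in XEN-iPS minus XEN at 1.25 (adjusted p = 0.0397), but not without XEN-iPS replicate 1 (0.74, adjusted p = 0.283) or either XEN library. The call at 48h, at 1.44 (adjusted p = 0.0284), was lost without 48h replicate 1, where the value was 0.13. It was also lost without either ES library (1.56 and 1.16).

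At equal depth per cell, a Mbnl3 molecule was found in more cells at day 14 than in XEN. After thinning each cell to 2000 UMIs, 3.21% of 4859 cells (95% Wilson interval 2.75 to 3.74) and 5.38% of 5636 cells (4.82 to 6.00) at day 14 held a Mbnl3 molecule. In XEN the shares were 0.0745% of 6708 cells (0.0318 to 0.174) and 0.190% of 5796 cells (0.106 to 0.340). The unthinned shares were 13.8% and 21.4% at day 14 and 1.47% and 1.98% in XEN, at median depths of 11756 and 13760 UMIs and of 15017 and 18976 UMIs. Shallower cells left out numbered 159 and 554 at day 14 and 234 and 359 in XEN. The intervals cover counting error only.

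Mbnl1, the third MBNL gene (chr3:60472830-60629750, plus strand), had a narrower range. It measured 13.8 and 11.6 CPM in XEN, 8.38 and 7.56 in XEN-iPS, 10.1 and 10.3 in ES, and 27.5 and 16.5 in iXEN. Its values ran from 6.62 to 11.3 CPM over days 7 to 28 and from 7.62 to 15.4 CPM over the libraries from 9h to 48h, so iXEN lay above all others. The log2 difference was −0.67 in XEN-iPS minus XEN (SE 0.27, adjusted p = 0.0443) and −1.10 in ES minus iXEN (SE 0.27, adjusted p = 0.00273). The first call was lost without any of the 4 libraries (−0.75 to −0.49) and turned to 1.25 (adjusted p = 0.0548) when the fibroblast-like and other removed clusters were kept. It was also lost with DESeq2 (−0.46, adjusted p = 0.168), RLE factors (−0.46, adjusted p = 0.161) and no filter on low counts (−0.59, adjusted p = 0.0995). The second was lost without iXEN replicate 1 (−0.62). At day 28 Mbnl1 was also called lower than in XEN (−0.80, SE 0.27, adjusted p = 0.0272). That call was lost without XEN replicate 1 (−0.62) or either day 28 library (−0.92 and −0.69).

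**Figure D3:**
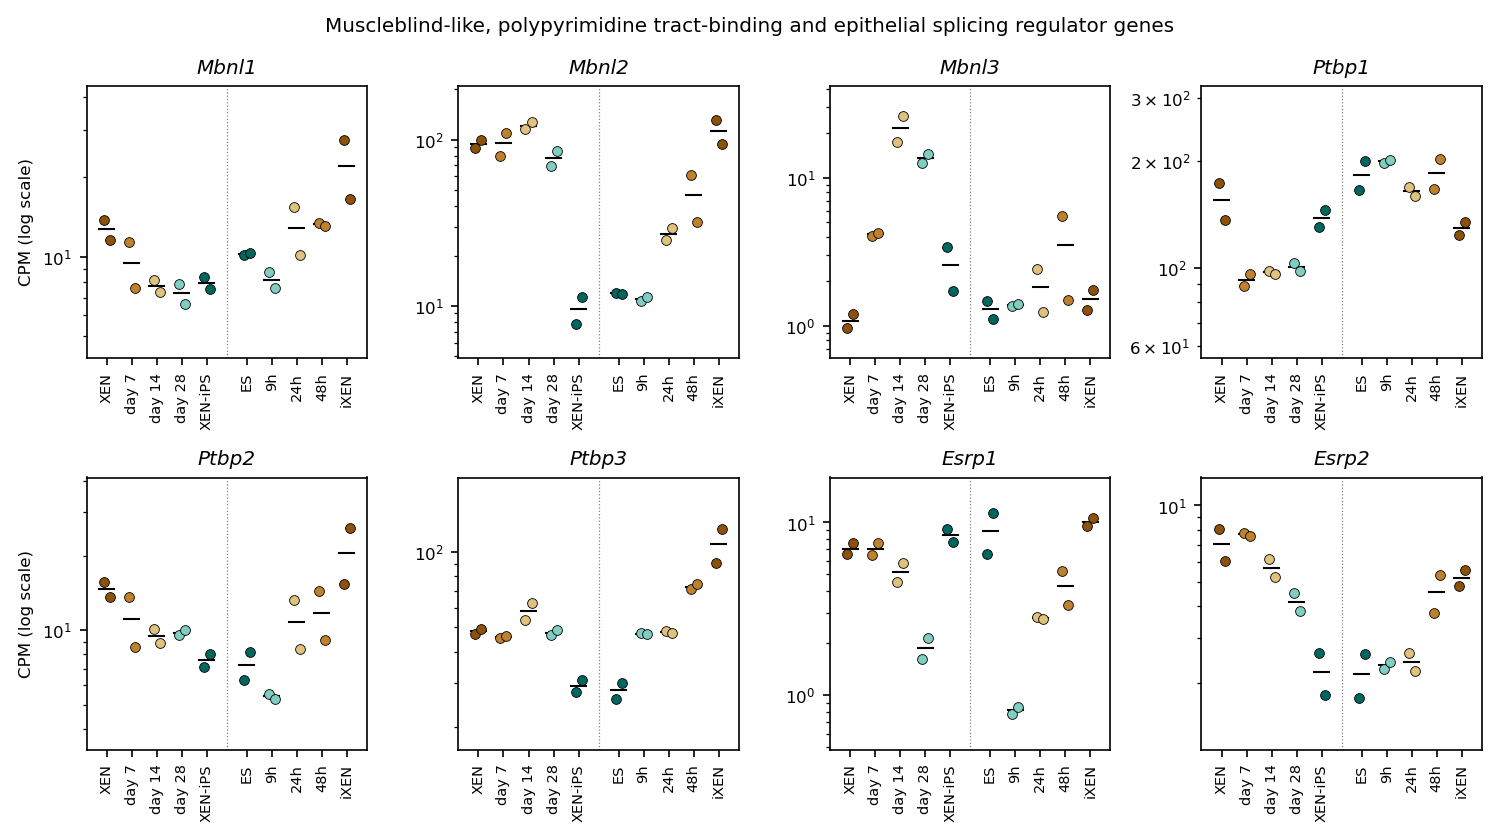
Level (CPM, log axis) of Mbnl1, Mbnl2, Mbnl3, Ptbp1, Ptbp2, Ptbp3, Esrp1 and Esrp2 in the 10 conditions, 1 dot per library and a bar at the condition mean. Mbnl2 is high in XEN to day 28 and in iXEN, Mbnl3 at day 14 and day 28, Ptbp3 in iXEN, and Esrp1 is lowest at 9h.

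Of the PTBP genes, which encode polypyrimidine tract-binding proteins, Ptbp3 (chr4:59471868-59549364, minus strand) differed in most comparisons. It measured 47.1 and 49.5 CPM in XEN, between 45.3 and 62.4 CPM at days 7 to 28, and 27.7 and 30.8 in XEN-iPS. In the other line it measured 26 and 30.1 CPM in ES, 47.4 and 46.9 at 9h, 48.5 and 47.5 at 24h, 70.9 and 74.5 CPM at 48h and, in iXEN, 90.8 and 124 CPM. ES and XEN-iPS libraries overlapped each other and lay below all others, and iXEN libraries lay above all others. The log2 difference was −0.72 in XEN-iPS minus XEN (SE 0.18, adjusted p = 0.00277), −1.94 in ES minus iXEN (SE 0.18, adjusted p = 5.00e-07) and 1.37 in 48h minus ES (SE 0.18, adjusted p = 3.07e-05), and these 3 calls held without any 1 library. The difference between both lines was itself called (1.22, SE 0.25, adjusted p = 0.00303) and also held, between 0.93 and 1.44.

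Ptbp3 was 1 of the 2 genes called at 9h (0.75, SE 0.18, adjusted p = 0.0190), but that call was lost without any 1 of its 4 libraries (0.64 to 0.84). The call in 24h minus ES (0.78, adjusted p = 0.00881) was lost without either 24h library or ES replicate 1 (0.64, adjusted p = 0.130). The call in 48h minus 24h (0.60, SE 0.18, adjusted p = 0.0408) was lost without any 1 library (0.51 to 0.60).

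Ptbp2, the PTBP gene best known from neurons, had the same direction as Ptbp3 in both lines. It measured 15.7 and 13.7 CPM in XEN against 7.14 and 8.04 in XEN-iPS, and 6.29 and 8.20 CPM in ES against 15.3 and 25.9 in iXEN, with no overlap in either pair. In between, it ran from 8.61 to 13.6 CPM over days 7 to 28, and it measured 5.55 and 5.28 CPM at 9h, 13.3 and 8.42 CPM at 24h and 14.4 and 9.18 CPM at 48h. The log2 difference was −1.51 in ES minus iXEN (SE 0.31, adjusted p = 7.46e-04), which held without any 1 library. The value in XEN-iPS minus XEN was −0.95 (SE 0.31, adjusted p = 0.0153), lost without XEN-iPS replicate 1 (−0.80, adjusted p = 0.0994) or XEN replicate 1 (−0.80, adjusted p = 0.0952), and with RLE factors (−0.75, adjusted p = 0.0513).

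Ptbp1 moved the other way in iXEN and was low during XEN reprogramming. It measured 173 and 136 CPM in XEN, 89.0 and 95.9 at day 7, 97.8 and 96.2 at day 14, 103 and 97.6 at day 28, and 130 and 145 in XEN-iPS, so the 6 intermediate libraries lay below the other 4. The log2 difference from XEN was −0.75 at day 7 (SE 0.18, adjusted p = 0.00814), −0.68 at day 14 (adjusted p = 0.0143) and −0.63 at day 28 (adjusted p = 0.0134). Without XEN replicate 1 these were −0.57 (adjusted p = 0.0876), −0.49 (adjusted p = 0.136) and −0.39 (adjusted p = 0.186). The call at day 7 was also lost without day 7 replicate 1 (−0.67, adjusted p = 0.0583), that at day 14 without either day 14 library (−0.65 and −0.67, adjusted p = 0.0765 and 0.0933) and that at day 28 without either day 28 library (−0.65 and −0.60, adjusted p = 0.0656 and 0.0883). In ES, at 165 and 200 CPM, it exceeded iXEN, at 123 and 134 CPM, by 0.50 (SE 0.18, adjusted p = 0.0290), a call lost without ES replicate 2 (0.48, adjusted p = 0.106) or either iXEN library. The 6 libraries from 9h to 48h spanned 159 to 203 CPM, above iXEN.

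Esrp1 (chr4:11331933-11386783, minus strand), a regulator of epithelial splicing, fell within both conversions and was near its starting level again in XEN-iPS and iXEN. In the ES series it measured 6.56 and 11.4 CPM in ES, 0.775 and 0.858 at 9h, 2.84 and 2.77 at 24h, 5.21 and 3.33 CPM at 48h and, in iXEN, 9.48 and 10.6 CPM. In the XEN series it measured 6.53 and 7.56 CPM in XEN, 6.45 and 7.64 at day 7, 4.53 and 5.83 at day 14, 1.62 and 2.14 at day 28, and 9.18 and 7.67 in XEN-iPS. The 9h libraries lay below all others, and day 28 libraries came next. The log2 difference from ES was −3.46 at 9h (SE 0.33, adjusted p = 6.30e-05) and −1.68 at 24h (SE 0.30, adjusted p = 0.00171), and that from XEN at day 28 was −1.91 (SE 0.30, adjusted p = 1.85e-04). All 3 held without any 1 library. The difference at 48h was −1.07 (adjusted p = 0.00919), lost without 48h replicate 2 (−0.87, adjusted p = 0.0767) or ES replicate 2 (−0.71, adjusted p = 0.114).

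The fall of Esrp1 at 9h was also seen at equal depth per cell. Thinned to 2000 UMIs, 1.33% of 7165 and 2.28% of 8652 ES cells held an Esrp1 molecule, against 0.238% of 4209 and 0.201% of 4979 cells at 9h (unthinned 8.41% and 13.8% against 1.96% and 1.72%). The 9h suspension was sorted and ES cells were not, and whether the sort had a part in this difference was not tested. Epithelial genes did not move together beside it: at 9h Cdh1 was lower (−1.19) and Cldn6 lower (−2.10), Krt8 was higher (1.90), and Epcam (−1.39) and Krt18 (0.26) were not called. Of 5 mesenchymal genes, Vim (1.47) and Snai1 (2.60) were higher, and Zeb1 (0.97), Zeb2 (−1.20) and Cdh2 (−1.41) were not called.

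Esrp2 (chr8:106130319-106136974, minus strand) followed the endoderm states. It measured 8.06 and 6.04 CPM in XEN, 7.79 and 7.58 at day 7, 6.16 and 5.21 at day 14, 4.49 and 3.85 at day 28, and 2.61 and 1.79 in XEN-iPS, and 1.74 and 2.59 CPM in ES against 4.82 and 5.54 in iXEN. Between ES and iXEN it measured 2.26 and 2.41 CPM at 9h, 2.61 and 2.22 CPM at 24h and 3.75 and 5.32 CPM at 48h. The log2 difference was −1.68 in XEN-iPS minus XEN (SE 0.30, adjusted p = 1.90e-04) and −1.70 in ES minus XEN (SE 0.29, adjusted p = 1.53e-04), both held without any 1 library. It was −1.26 in ES minus iXEN (SE 0.29, adjusted p = 0.00189), lost without ES replicate 1 (−0.89, adjusted p = 0.0617). Its rise at 48h (1.07, adjusted p = 0.00872) was lost without 48h replicate 2 (0.71) or ES replicate 1 (0.73). Day 28 minus XEN was called as well (−0.76, SE 0.29, adjusted p = 0.0466), a call lost without XEN replicate 1 (−0.48) or either day 28 library (−0.86 and −0.66).

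Rbfox2, an RNA-binding protein of the FOX family, was not called in any comparison. Its lowest values were the 13.0 and 14.0 CPM at 9h, against 23.3 and 24.9 CPM in ES (−0.84, SE 0.25, adjusted p = 0.0551), and its highest was 43.3 CPM in iXEN replicate 1, beside 29.9 CPM in replicate 2. The remaining values were 26.4 and 33.7 CPM in XEN, 23.5 to 38.1 CPM over days 7 to 28, 22.6 and 33.1 CPM in XEN-iPS, and 15.9 to 25.2 CPM over 24h and 48h. The 24h and 48h libraries lay below XEN, and XEN-iPS overlapped it. Tra2a and Tra2b encode SR-like proteins. Tra2b, whose range was 1.59-fold, was not called anywhere. It measured 188 and 180 CPM in XEN, 208 and 159 in XEN-iPS, 163 and 181 in ES, and 148 and 241 in iXEN, with the highest value, 298 CPM, in day 28 replicate 2. Tra2a measured 95.3 and 67.0 CPM in XEN, 163 and 92.4 in XEN-iPS, and 137 and 131 in ES, with 101 to 129 CPM over days 7 to 28, 119 to 197 CPM from 9h to 48h, and 75.8 and 109 CPM in iXEN. XEN-iPS replicate 2 thus lay within the XEN range, and the call at 0.65 (adjusted p = 0.0465) was lost without XEN-iPS replicate 1 (0.25, adjusted p = 0.456) or XEN replicate 2 (0.47, adjusted p = 0.247). In ES minus XEN it was 0.73 (adjusted p = 0.0298), lost without XEN replicate 2 (0.51, adjusted p = 0.220) or either ES library.

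Among the SR genes, 5 of 11 were higher in ES than in XEN and none lower (45.5%, against 28.4% of all genes called higher), within 1 sequencing project. They were Srsf1, Srsf2, Srsf4, Srsf10 and Srsf12. The last was nearly absent from XEN and its call supports nothing by itself, so the count rests on the others. Srsf4 measured 23.8 and 20.5 CPM in XEN and 44.5 and 47.4 in ES, and its log2 difference of 1.05 (SE 0.22, adjusted p = 7.34e-04) held without any 1 library. Srsf2 measured 89.6 and 98.9 CPM in XEN and 153 and 214 in ES (0.96, SE 0.39, adjusted p = 0.0473), a call lost without ES replicate 2 (0.75, adjusted p = 0.217) or either XEN library. For Srsf1, at 137 and 89.4 CPM in XEN and 168 and 185 in ES, the value of 0.64 (adjusted p = 0.0441) fell to 0.38 (adjusted p = 0.328) without XEN replicate 2, and the call was also lost without ES replicate 1 (0.74, adjusted p = 0.0829) or ES replicate 2 (0.62, adjusted p = 0.146). Srsf10, at 84.0 and 70.0 CPM in XEN and 137 and 135 in ES, differed by 0.82 (SE 0.23, adjusted p = 0.00702).

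In XEN-iPS minus XEN, 1 of 11 SR genes was called (9.09%, against 56.6% of all genes), and it was Srsf12. The duplicates of XEN-iPS differed most of all conditions, with an SD of the log2 ratio between them of 0.991, and the counts of this comparison and of ES minus XEN were not tested against each other. Srsf3, a compact SR protein, measured 606 and 333 CPM in XEN-iPS against 379 and 416 in XEN, and Srsf7 measured 340 and 159 CPM against 155 and 172, so in both cases replicate 1 was above XEN and replicate 2 within or below it. Of the 10 SR genes other than Srsf12, 2 were at least 2-fold apart between the XEN-iPS duplicates, against 16.2% of the 4863 genes with a mean of at least 20 CPM.

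In ES minus iXEN, 3 SR genes were higher and Srsf9 was lower (36.4%, against 55.9% of all genes, of which 25.9% higher). Srsf7 measured 289 and 298 CPM in ES and 74.8 and 155 in iXEN (1.35, SE 0.39, adjusted p = 0.00779). Srsf1 (0.87, SE 0.26, adjusted p = 0.00941) and Srsf4 (0.66, SE 0.22, adjusted p = 0.0175) were the other two. All 3 calls were lost without iXEN replicate 1, with values of 0.99 (adjusted p = 0.0802), 0.68 (adjusted p = 0.0733) and 0.43 (adjusted p = 0.137). The iXEN duplicates differed in this class: all 10 SR genes other than Srsf12 were higher in replicate 2, by a median of 0.79 on the log2 scale, and 4 of them (40.0%) were at least 2-fold apart, against 5.78% of the 4863 genes with a mean of at least 20 CPM and 1 of 20 hnRNP genes. Srsf3 measured 217 and 685 CPM in these libraries, Srsf5 144 and 314, and Srsf6 127 and 298.

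Srsf9 was lower than in XEN at all 3 XEN-to-iPS time points. It measured 58.5 and 49.7 CPM in XEN, 25.7 and 21.6 at day 7, 33.2 and 29.5 at day 14, and 27.7 and 26.1 at day 28, with no overlap between XEN and any time point. The log2 difference was −1.19 at day 7 (SE 0.28, adjusted p = 0.00554), −0.79 at day 14 (adjusted p = 0.0455) and −1.01 at day 28 (adjusted p = 0.00861). Day 7 was lost without day 7 replicate 2 (−1.08, adjusted p = 0.0669), day 28 without XEN replicate 1 (−0.84, adjusted p = 0.0802) or day 28 replicate 2 (−0.97, adjusted p = 0.0609), and day 14 without any 1 library (−0.93 to −0.67). In XEN-iPS it measured 34.4 and 70.4 CPM, which spans the XEN values. In ES, at 35.0 and 36.2 CPM, it was below iXEN, at 56.9 and 59.8 CPM, while it measured 23.7 and 28.1 CPM at 9h, 45.1 and 29.9 at 24h, and 32.3 and 27.8 at 48h. ES minus iXEN was called (−0.71, SE 0.27, adjusted p = 0.0359), a call lost without any 1 library (−0.68 to −0.58) and with RLE factors (−0.62, adjusted p = 0.0666). Srsf1 was also called lower than in XEN at day 14, with means of 66.5 and 113 CPM (−0.77, SE 0.26, adjusted p = 0.0404). That call was lost without XEN replicate 1 (−0.43) or either day 14 library (−0.93 and −0.59).

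The high SR levels at 9h did not differ from ES by the test. Fitted values were above ES for 9 of 11 genes, with a median of 0.14 on the log2 scale against −0.0046 over all genes. No SR gene was called by edgeR and none had an unadjusted p under 0.05. Srsf7, the gene with the largest value, measured 471 and 490 CPM at 9h against 289 and 298 in ES (0.71, SE 0.38, adjusted p = 0.278). At 48h all 11 fitted values were below ES, between −0.94 and −0.03, with a median of −0.36 against 0.05 over all genes. The share of all genes above or below ES was not counted at 9h or 48h. Srsf4 was called at 48h, at 28.1 and 29.1 CPM against 44.5 and 47.4 in ES (−0.69, SE 0.22, adjusted p = 0.0198). That call was lost without 48h replicate 1 (−0.75, adjusted p = 0.0572) or ES replicate 2 (−0.73, adjusted p = 0.0559).

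Srsf12 (chr4:33208991-33233340, plus strand) was rare in every library and nearly absent from XEN. XEN held 0 UMIs in replicate 1, where a count of 0 allows up to 3, and 5 UMIs in replicate 2. Its level was 0.0669 and 0.244 CPM at day 7, 0.575 and 0.404 at day 14, 0.802 and 0.958 at day 28, and 0.596 and 0.779 in XEN-iPS. In the other line it lay between 0.782 and 1.33 CPM in all 10 libraries, iXEN included, so it was not low in both endoderm states. From pooled counts, XEN-iPS held 34 times the XEN level (exact 95% interval 14.0 to 107, 85 against 5 UMIs), and day 7, day 14 and day 28 held 7.60 times (2.83 to 25.6), 20.5 times (8.38 to 65.3) and 40.5 times (17.0 to 127), intervals that cover counting error only. The gene passed the filter on low counts through the conditions other than XEN, so its calls against XEN, which are among the genes counted as higher at day 7, day 14, day 28 and in XEN-iPS and ES, support nothing by themselves. In ES minus iXEN the log2 difference was 0.03 (SE 0.58, adjusted p = 0.977).

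Among the 20 hnRNP genes, 6 were higher and none lower in ES than in iXEN (30.0%, against 25.9% of all genes called higher), namely Hnrnpa1, Hnrnpd, Hnrnpdl, Hnrnpf, Hnrnph2 and Hnrnpm. The call of Hnrnpm was lost without ES replicate 1 (0.68, adjusted p = 0.158) or either iXEN library (0.83 and 0.77, adjusted p = 0.0971 and 0.118), and Hnrnpdl, Hnrnpf and Hnrnph2 were not followed without single libraries. Hnrnpa1, an abundant regulator that often opposes SR proteins, measured 592 and 634 CPM in ES, 790 and 793 at 9h, and 301 and 329 in iXEN. Its difference of 0.96 (SE 0.18, adjusted p = 3.78e-04) held without any 1 library. Hnrnpa1 has processed pseudogenes of near-identical sequence, and although the pipeline used by the authors resolves reads that map to several places, its level is uncertain to the extent that such reads were split. Hnrnpd, known for binding AU-rich RNA, measured 92.1 and 122 CPM in ES and 60.6 and 33.3 in iXEN (1.19, SE 0.32, adjusted p = 0.00525), lost without iXEN replicate 2 (0.84, adjusted p = 0.0701).

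In ES minus XEN, 5 were higher and none lower (25.0%, against 28.4% of all genes called higher), and among them Hnrnpdl and Hnrnpr differed by 0.63 and 0.55 (adjusted p = 0.0391 and 0.0418), which were not followed without single libraries. Of the others, Hnrnpa1 was lost without XEN replicate 2 (0.51, adjusted p = 0.0795), and Hnrnpd without ES replicate 2 (0.65, adjusted p = 0.195), XEN replicate 1 (0.98, adjusted p = 0.0662) or XEN replicate 2 (0.73, adjusted p = 0.174), while Hnrnph3 held without any 1 library.

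For XEN-iPS minus XEN, 1 hnRNP gene was higher and 3 were lower (20.0%, against 56.6% of all genes). Hnrnpll measured 32.7 and 26.7 CPM in XEN and 17.5 and 18.9 in XEN-iPS (−0.71, SE 0.18, adjusted p = 0.00402), lost without XEN replicate 1 (−0.50, adjusted p = 0.0717). Hnrnpa2b1 measured 571 and 472 CPM in XEN and 389 and 230 in XEN-iPS (−0.75, SE 0.25, adjusted p = 0.0183), and Hnrnpk, a KH-domain protein, 284 and 230 CPM against 198 and 170 (−0.48, SE 0.18, adjusted p = 0.0311). Both were lost with RLE factors (−0.54, adjusted p = 0.0777, and −0.27, adjusted p = 0.201) and with DESeq2 (−0.54, adjusted p = 0.062, and −0.27, adjusted p = 0.121). Both were also lost without XEN replicate 1 (−0.56 and −0.27) or XEN-iPS replicate 2 (−0.45 and −0.40). Hnrnpk was further lost without XEN-iPS replicate 1 (−0.53), with no filter on low counts (−0.40, adjusted p = 0.212) and with the removed clusters kept (−0.43, adjusted p = 0.0533).

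Hnrnph3 was the hnRNP gene with the widest range, 3.79-fold. It measured 16.1 and 15 CPM in XEN, 26.9 and 37.1 at day 7, 24.2 and 28.0 at day 14, 15.6 and 17.0 at day 28, and 24.8 and 22.3 in XEN-iPS, against 40.8 and 40.0 CPM in ES and 58.7 and 59.2 at 9h. Day 7, day 14 and XEN-iPS lay above XEN without overlap, and day 28 overlapped it. The log2 difference in ES minus XEN was 1.38 (SE 0.24, adjusted p = 1.52e-04) and held without any 1 library. At day 7 it was 1.04 (SE 0.24, adjusted p = 0.00498), lost without day 7 replicate 2 (0.78, adjusted p = 0.0795). The value in XEN-iPS minus XEN was 0.60 (adjusted p = 0.0403), lost without any 1 library (0.59 to 0.70).

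Hnrnpab was the hnRNP gene that was lower at all 3 XEN-to-iPS time points. It measured 640 and 587 CPM in XEN, 382 and 248 at day 7, 348 and 255 at day 14, 280 and 235 at day 28, and 458 and 620 in XEN-iPS, so the 6 intermediate libraries lay below the other 4. The difference was −1.25 at day 28 (SE 0.27, adjusted p = 0.00205), which held without any 1 library, within 1 sequencing project. It was −0.96 at day 7 (adjusted p = 0.0170), lost without day 7 replicate 2 (−0.69, adjusted p = 0.187) or either XEN library, and −1.02 at day 14 (adjusted p = 0.0123), lost without day 14 replicate 2 (−0.82, adjusted p = 0.137) or XEN replicate 1 (−0.97, adjusted p = 0.0658). It was also lower at 48h, with 355 and 287 CPM against 585 and 604 in ES (−0.89, SE 0.27, adjusted p = 0.0163), lost without 48h replicate 2 (−0.83, adjusted p = 0.0931). The other time-course calls of hnRNP genes were Hnrnpm (−0.98) and Hnrnpul1 (−0.59) at day 7, Hnrnph3 (0.75) at day 14, Hnrnph1 (−0.72) at day 28 and Hnrnpul1 (0.49) at 48h, and each was lost without at least 2 of its libraries.

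The pluripotent and endoderm states of both lines share no library and could be set side by side. Of the 12 genes called in XEN-iPS minus XEN and the 16 called in ES minus iXEN, 5 were called in both with the same sign (41.7% and 31.2%), against 61.3% and 62.1% for all genes, counted the same way. The 5 were Mbnl1, Mbnl2, Ptbp2, Ptbp3 and Esrp2, and each was lower in the pluripotent state in both lines. Mbnl2 and Ptbp3 held in both lines without any single library, whereas Mbnl1, Ptbp2 and Esrp2 did not. The Mbnl1 difference in XEN-iPS minus XEN also turned positive with the removed clusters kept. Whether called or not, 24 of 42 genes (57.1%) had the same sign in both lines, against 73.0% of all genes. The difference between the lines was called for 7 genes (16.7% against 26.7%), 2 higher and 5 lower, and Hnrnpa1, Hnrnpa2b1, Hnrnph2, Hnrnpll and Hnrnpm were the 5. Without XEN replicate 1 the count was 2. XEN and iXEN came from different sequencing projects, as did XEN-iPS and ES, so these differences between lines cannot be told apart from project.

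**Figure D4:**
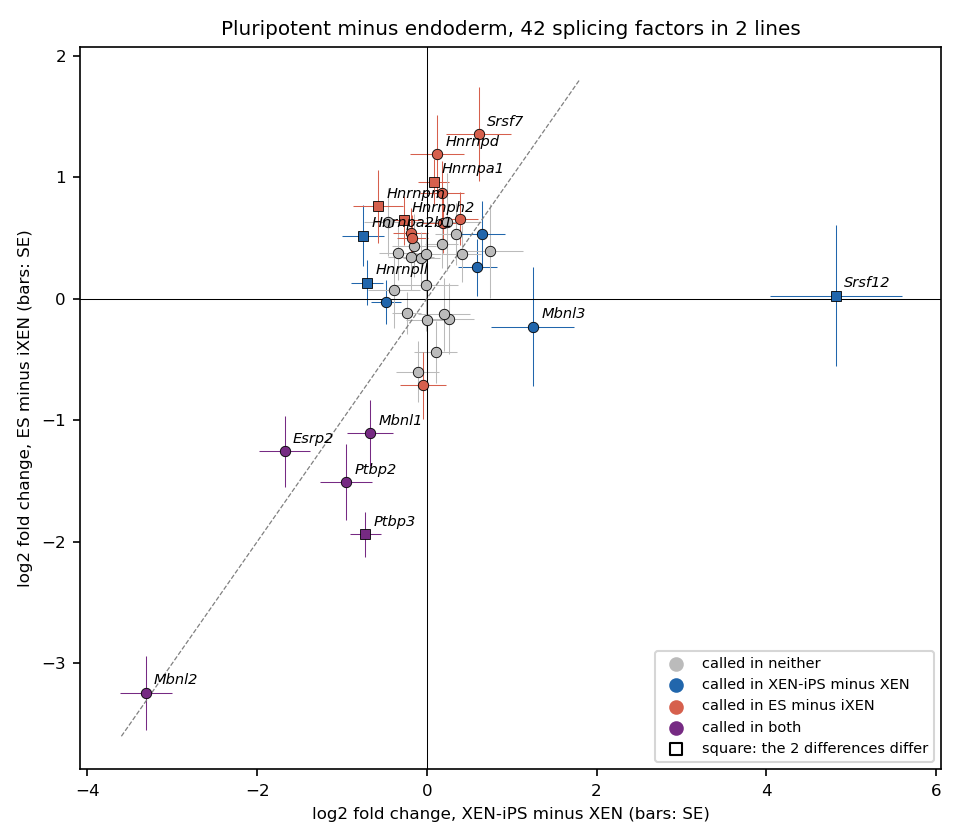
Log2 difference of each of the 42 genes in XEN-iPS minus XEN (x axis) against ES minus iXEN (y axis), with bars of 1 SE and squares where the difference between lines was called. Mbnl2 lies near −3.3 on both axes, and Srsf12 lies at 4.82 on the x axis and 0.03 on the y axis.

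At day 28 the kept cells of sufficient depth fell into clusters with endoderm markers, with pluripotency markers or with some of both, and the members could be read in each class. The last class was 1 cluster, left unnamed, in which 9 of 10 endoderm and 4 of 10 pluripotency markers exceeded 20 CPM and no pluripotency marker was among the 10 leading genes. Cells of a low-UMI cluster, kept in the library sums without a name, were in none of the classes. The classes come from clustering on the same counts, so the values are a description without a test. Mbnl2 measured 103 and 112 CPM in the endoderm-like cells of the duplicates, 87.6 and 144 in the cells with both sets of markers, and 10.7 and 16.1 in the pluripotent-like cells. XEN-iPS libraries held 7.76 and 11.3 CPM, which unlike the class values carry TMM scaling. Mbnl3, a leading gene of 1 endoderm-like cluster, measured 21.4 and 18.3, 12.3 and 21.8, and 4.71 and 6.13 CPM in the same order. Esrp2 measured 5.72 and 6.12, 5.03 and 4.59, and 2.5 and 2.21 CPM, and Ptbp3 45.9 and 45.3, 57.2 and 68.0, and 32.5 and 37.0 CPM.

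Esrp1, Srsf12, Srsf7 and Tra2a did not share that order. Esrp1 was low in all 3 day 28 classes, at 0.604 and 1.70, 2.02 and 2.08, and 2.11 and 2.84 CPM. All lay below the 6.53 and 7.56 CPM of XEN and the 9.18 and 7.67 CPM of XEN-iPS, although only the library values carry TMM scaling. Srsf12 was highest in the cells with both marker sets, at 1.45 and 1.5 CPM, against 0.254 and 0.410 in endoderm-like and 0.390 and 0.830 in pluripotent-like cells. Srsf7 measured 219 and 226 CPM in pluripotent-like cells and 114 to 168 CPM in the other classes, and Tra2a 161 and 180 CPM against 88.7 to 126 CPM. Pluripotent-like cells numbered 911 and 442 and had the highest median depth, 32947 and 54979 UMIs, against 16180 and 29684 in endoderm-like cells. Whether depth had a part in these differences was not tested.

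**Figure D5:**
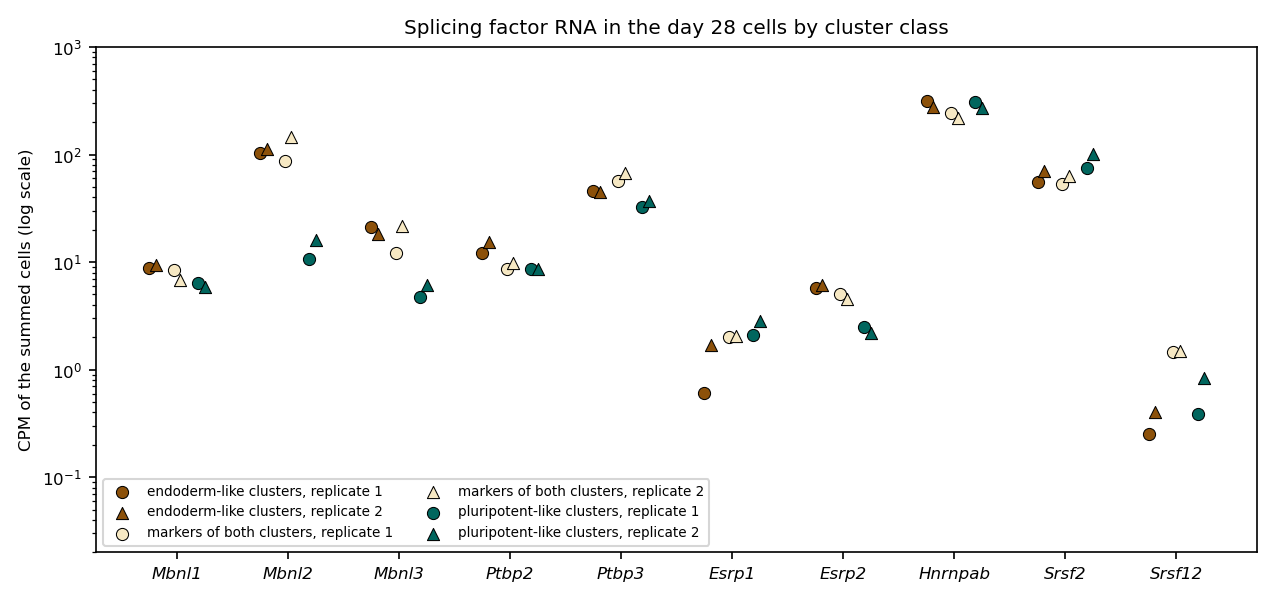
Level (CPM, log axis) of 10 splicing genes in the endoderm-like, both-marker and pluripotent-like cells of the day 28 libraries, with circles for replicate 1 and triangles for replicate 2. Mbnl2, Mbnl3 and Esrp2 are lower in pluripotent-like than in endoderm-like cells in both libraries.

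Other genes of the splicing pathway were counted from lists. The calls of single genes on these lists were not followed without single libraries or with other settings. Of the kinases that phosphorylate SR proteins, 8 of 9 listed were tested. In XEN-iPS minus XEN, Srpk2 was higher (0.82) and Clk3 (−1.55) and Dyrk1a (−0.84) were lower (37.5%, against 56.6% of all genes), and in ES minus iXEN Srpk1 was higher (1.03) and Dyrk1a lower (−1.08; 25.0% against 55.9%). In ES minus XEN, Srpk1 (0.87) and Prpf4b (0.61) were higher and Clk3 (−0.99) and Dyrk1a (−0.90) lower (50% against 55.9%). Srpk2 was the 1 kinase called at day 7 (0.83; 12.5%, against 26.1% of all genes) and at day 14 (0.88; 12.5% against 24.9%). Dyrk1a was therefore lower in the pluripotent state of each line.

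The core spliceosome, with 36 subunit genes of the small nuclear ribonucleoproteins and their partners, gave unlike counts in both lines. In ES minus iXEN 31 were higher and none lower (86.1%, against 25.9% of all genes called higher), with a median of 0.95 against −0.06 over all genes. Cdc5l (2.02) and Prpf31 (1.73) were among them. Against that, XEN-iPS minus XEN gave 3 higher and 1 lower (11.1%, against 56.6% of all genes called; 8 called with DESeq2 and 7 with RLE factors, all higher), with a median of 0.08, including Cdc5l (1.42) and Snrpe (−0.56). At 48h 15 were lower than in ES and none higher (41.7%, against 17.8% of all genes called lower). The difference between lines was called for 15, all lower (41.7%, against 26.7% of all genes called in either direction). The iXEN libraries had the fewest UMIs per cell, and the part of depth in these counts was not tested. ES minus iXEN, 48h minus ES and the difference between lines also cannot be told apart from sequencing project. ES minus XEN, within 1 project, gave 11 higher and none lower (30.6%, against 28.4% of all genes called higher), among them Cdc5l (2.07) and U2af1 (1.33).

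Of 37 other RNA-binding splicing regulators, 35 were tested. In XEN-iPS minus XEN 8 were higher and 5 lower (37.1%, against 56.6% of all genes), and in ES minus iXEN 10 and 4 (40.0% against 55.9%). The quaking gene Qk was lower in both pluripotent states (−1.96 and −1.94), as were Celf2 (−2.80 and −4.12) and Rbm20 (−2.55 and −1.78), while Elavl2 was higher (3.85 and 4.10). In 48h minus ES 4 were higher and 4 lower (22.9%, against 40.3% of all genes), among them Rbm20 (3.16), Celf2 (2.72) and Elavl2 (−2.80). The neuronal regulators Rbfox3 and Srrm4 had 0 UMIs in both XEN libraries, and Rbfox3 had 34 and 65 UMIs in XEN-iPS and 46 and 48 in ES. The highest log2 difference on this list in XEN-iPS minus XEN was 9.10. Genes absent from XEN that passed the filter on low counts through other conditions can be among those counted as higher than XEN. Such calls support nothing by themselves.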

How the data were processed

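Single-cell 3′ RNA sequencing (10x Genomics v2 chemistry) was deposited as 20 tables of UMI counts, with cells in rows and gene symbols in columns. The counts were made by the authors with the SEQC pipeline on mm10, and cells with over 20% mitochondrial reads had been removed by them. Cells with under 500 genes (20991 of 134279) were left out. The rest were clustered per conversion (Leiden, 30 neighbours, resolution 1.0). Clusters holding fibroblast or differentiation markers (6414 cells) were removed with thresholds set after seeing the data. No cluster was removed for 2-cell markers, which summed to 106 CPM in the kept cells of XEN-iPS replicate 1 and 3.98 CPM in replicate 2. No doublet caller was run, and cells with over 2.5 times the median UMIs of their library were left out as an alternative. Of 123148 distinct barcodes, 10520 occurred in more than 1 library (at most 1.67% of a pair).

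UMI counts of kept cells were summed per library and tested in 1 model of 10 conditions by edgeR 4.0.16 (R 4.3.3; TMM, filterByExpr, quasi-likelihood, 10 residual degrees of freedom, Benjamini-Hochberg over 16744 genes). Levels of single genes per library or condition are CPM of edgeR. They are the UMIs of a gene scaled to 1000000 UMIs of the tested genes, with library totals adjusted by TMM factors. Marker sums, SR and hnRNP sums, values of the day 28 classes and pooled Srsf12 ratios are per 1000000 kept UMIs, without TMM. All were computed here from the counts. On simulated data for XEN-iPS minus XEN (16366 genes, 200 changed), 17% of 2-fold and 93% of 4-fold changes were recovered with 11 false calls. For day 28 minus XEN (16503 genes) the shares were 28% and 89%, and for 48h minus ES (16467 genes) 19% and 94%. Far fewer genes changed there than were called in the data, where XEN-iPS minus XEN gave 56.6%. Adjustment for multiple tests was therefore stricter in the simulation, and its shares do not give the recovery in the data. A 2-fold change that was not called may still be real. Intervals of shares are 95% Wilson intervals and those of count ratios are exact.

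Genes were named by rule: the 11 single regulators, and for each comparison the 3 highest and 3 lowest called SR or hnRNP genes with a mean of at least 20 CPM in 1 of the 2 conditions, with the 2 highest and 2 lowest called genes of a pathway list. Srsf3, Srsf5, Srsf6, Srsf10, Srsf12, Hnrnpdl, Hnrnpf, Hnrnph2, Hnrnpr, Qk, Rbfox3 and Srrm4, and the not-called values of Srsf7, were named after their values were seen. The genes followed and the pathway lists were chosen with earlier results of these data known. Alternatives were DESeq2 1.42.0, RLE size factors, no filter on low counts, removed clusters kept, high-UMI cells left out, the replicate number or sequencing project as a block, and each library left out in turn. Where a library was left out, the lone library was assumed to vary like those of the other conditions. Gene coordinates are from GENCODE on GRCm38, and promoter windows from RefSeq matched 36 of the 42 genes by symbol. Esrp1, Esrp2 and Ptbp3 had no window.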

Additional observations from a re-analysis of the deposited data

Results flagged for a closer look

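For 7 of the 42 splicing genes the pluripotent minus endoderm difference was not the same in both lines, by the interaction term of edgeR's quasi-likelihood model ((XEN-iPS minus XEN) minus (ES minus iXEN)). The size on the log2 scale was −0.88 for Hnrnpa1 (adjusted p = 0.0199), −1.27 for Hnrnpa2b1 (adjusted p = 0.0162), −0.92 for Hnrnph2 (adjusted p = 0.0268), −0.84 for Hnrnpll (adjusted p = 0.0263) and −1.33 for Hnrnpm (adjusted p = 0.0299). It was 1.22 for Ptbp3 (adjusted p = 0.00303), which was lower in the pluripotent state of both lines and more so in the iGata4-Gata6-Venus line. The fitted value was 4.8 for Srsf12 (adjusted p = 0.00263), but XEN held 0 and 5 UMIs of it and the gene passed the filter on low counts through other conditions, so this value depends on the prior count and its p supports nothing. The counts behind it are 85 UMIs in XEN-iPS against 5 in XEN, a ratio with an exact 95% interval of 14.0 to 107 for counting error only. Ptbp3 held without any 1 library (0.93 to 1.44). Of the others, Hnrnpa1, Hnrnpa2b1, Hnrnpll and Hnrnpm were each lost without XEN replicate 1 (−0.75, −1.14, −0.69 and −1.09) and without at least 2 other libraries, and Hnrnph2 and Srsf12 were not followed.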

How the results depend on the processing

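Of 75 calls of splicing genes named by the fixed rule (calls of Srsf10, Srsf12, Hnrnpdl, Hnrnpf, Hnrnph2 and Hnrnpr were not followed), 21 of 10 genes were kept without any 1 library, and leaving out XEN replicate 1 ended 29 of its 48 calls. Without 1 library the number of genes called ranged from 5 to 11 in XEN-iPS minus XEN, 7 to 16 in ES minus iXEN, 7 to 11 in ES minus XEN, 1 to 9 at day 7, 2 to 5 at day 14, 4 to 10 at day 28, 1 to 1 at 9h, 1 to 2 at 24h, 4 to 5 at 48h, 0 to 1 in 48h minus 24h and 2 to 9 for the difference between lines, and of core spliceosome genes from 2 to 4 in XEN-iPS minus XEN and 25 to 31 in ES minus iXEN. DESeq2 called 15 genes in 48h minus ES, against 8. In 48h minus 24h, against 1, DESeq2, the sequencing project as a block and leaving out high-UMI cells gave 2, and RLE factors, no filter on low counts and keeping the removed clusters gave 0. Keeping the removed clusters gave 11 genes for the difference between lines, against 7, and turned Mbnl1 in XEN-iPS minus XEN from −0.67 to 1.25. Core spliceosome genes in XEN-iPS minus XEN numbered 8 with DESeq2, 7 with RLE factors and 2 with the removed clusters kept, against 4. The causes were not tested. The share of all genes called in each setting is not set beside these counts, so the changes cannot be read as particular to the genes counted. Of the 75 calls, DESeq2 ended 4, RLE factors 9, leaving out high-UMI cells 2, no filter 12 and keeping the removed clusters 16 (1 of them the reversed Mbnl1), and the sequencing project as a block ended none of the 20 calls it could be fitted for. Over all 45 pairs of conditions the correlation of deviations ranged from −0.139 to 0.312, so the replicate number did not pair the samples throughout. The highest value was that of 24h and 48h, where replicate 1 and replicate 2 came from different sequencing projects and the number therefore marks the project. With project as a block, Ptbp3 in 48h minus 24h was 0.60 (adjusted p = 0.025). As a replicate block it gave 11 genes in XEN-iPS minus XEN, 16 in ES minus iXEN and 14 in ES minus XEN, and ended 4 calls (Tra2a in XEN-iPS minus XEN, Srsf2 in ES minus XEN, Srsf9 at day 14 and Esrp2 at day 28). RLE factors moved the median of all genes by 0.21 in XEN-iPS minus XEN and 0.11 for the difference between lines. Genes under 1 CPM, such as Srsf12, rest on few UMIs.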
